A study of Mus musculus with 2 samples.

Results

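The antioxidant and glutathione genes described here were the 72 rows, of 17245 genes in the expression table, whose symbols name a glutathione peroxidase (Gpx), peroxiredoxin (Prdx), superoxide dismutase (Sod1 to Sod3), catalase (Cat), glutaredoxin (Glrx), glutathione S-transferase (Gst), thioredoxin or thioredoxin-related protein (Txn), metallothionein (Mt1, Mt2), or one of 10 further genes. These were Gclc, Gclm, Gsr, Gss, Srxn1, Hmox1, Hmox2, Nqo1, Keap1 and Nfe2l2. The rule uses gene symbols and no measured value. The table held 1 RNA-seq library of mouse pancreatic islets from wild-type (WT) animals and 1 from animals that the series describes as lacking cGAS, a sensor of cytosolic DNA, in the β-cells (KO). Islets of both genotypes were hand-picked after collagenase digestion and cultured before RNA extraction. No label gives the deleted exon, the driver of recombination, the age and sex of the mice or the number of mice behind each library.

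With 1 library per genotype there was no measure of the spread between animals, and no test between genotypes was possible. Values are FPKM, read numbers divided by gene length and library total, so levels of different genes can be set side by side. Differences are given as log2 of (KO + 1 FPKM) over (WT + 1 FPKM), which understates the change of genes at low level. Ratios of the FPKM themselves carry exact 95% intervals from the smallest whole read numbers that fit the values. The library totals used for this were inferred from the FPKM values and are not given by the labels. They were 14537660 reads (labelled KO) and 19097001 reads (WT). For a gene with more reads than the smallest that fit, the interval would be narrower. These intervals cover at most counting error and treat each read as independent. The reads carry no molecular identifiers, so copies made in amplification count as separate reads, and the intervals may be too narrow. They say nothing about differences between animals. The RNA of the targeted gene did not follow the label: Cgas measured 0.521 FPKM in the library labelled KO against 0.205 in WT, from at least 31 and 16 reads, a ratio of 2.55 (1.35 to 4.98). Every direction below is therefore one between the library labelled KO and the WT library.

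As background, superoxide formed by respiration and oxidases is turned into hydrogen peroxide by superoxide dismutases, and the peroxide is then reduced by catalase, by glutathione peroxidases using glutathione, or by peroxiredoxins using thioredoxin. Glutathione reductase and thioredoxin reductases restore both thiols with NADPH. β-cells are known for low levels of catalase and cytosolic glutathione peroxidase relative to liver. The transcription factor NRF2 (Nfe2l2), held in check by KEAP1, drives many of these genes through the antioxidant response element, and metallothioneins respond to zinc through the metal response element.

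Several of the genes with the highest RNA in the set encode selenoproteins, in which a TGA codon is read as selenocysteine at the active site. The coding stretch around that codon is shown for the 7 such genes, because it separates the glutathione peroxidases Gpx1 to Gpx4, which have it far from the stop codon, from the thioredoxin reductases, which have it as the last residue but one. Sequences are from the GRCm38 genome, 5′ to 3′ on the coding strand, with the selenocysteine codon in capitals and the coordinates of that codon.
Gpx1, chr9:108339451-108339453, plus strand: gagaatgtcgcgtctctcTGAggcacc
Gpx2, chr12:76795256-76795258, minus strand: gagaatgtggcgtcactcTGAggaaca
Gpx3, chr11:54907256-54907258, plus strand: gtcaacgtagccagctacTGAggtctg
Gpx4, chr10:80054737-80054739, plus strand: accaacgtggcctcgcaaTGAggcaaa
Txnrd1, chr10:82896037-82896039, plus strand: atcctccagtctggctgcTGAggttaa
Txnrd2, chr16:18477772-18477774, plus strand: cctactgtgactggttgcTGAggctaa
Txnrd3, chr6:89674789-89674791, plus strand: attactcagaaaggctgcTGAggctag

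Of the 72 genes, 65 reached 1 FPKM in at least 1 library. The other 7 (Gpx6, Gstm6, Gstp2, Gstt4, Prdx6b, Txndc2 and Txndc8) lay between 0 and 0.832 FPKM and are not considered further. Across the 65 genes the levels of both libraries had a Spearman correlation of 0.96, as a description over genes that are not independent replicates. Gpx3, Sod1 and Prdx1 were the 3 genes above 100 FPKM in both. The 72 genes together held 2889 FPKM in the library labelled KO and 2366 in WT, a ratio of 1.22, and Gpx3 alone made up 23.0% and 17.4% of those sums. Levels of Gstz1, Prdx4 and the pseudogene Gstp-ps are less comparable with the rest, since the smallest gene length that fits their values was at least 2 times their longest annotated transcript. Reads of 11 of the 65 genes are uncertain, since at least 25% of the 31-base words of their transcripts also occur in another gene: Gpx2, Gpx4, Gstm1, Gstp-ps, Gstp1, Gstt3, Hmox2, Mt2, Prdx2, Prdx5 and Sod1.

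**Figure D1:**
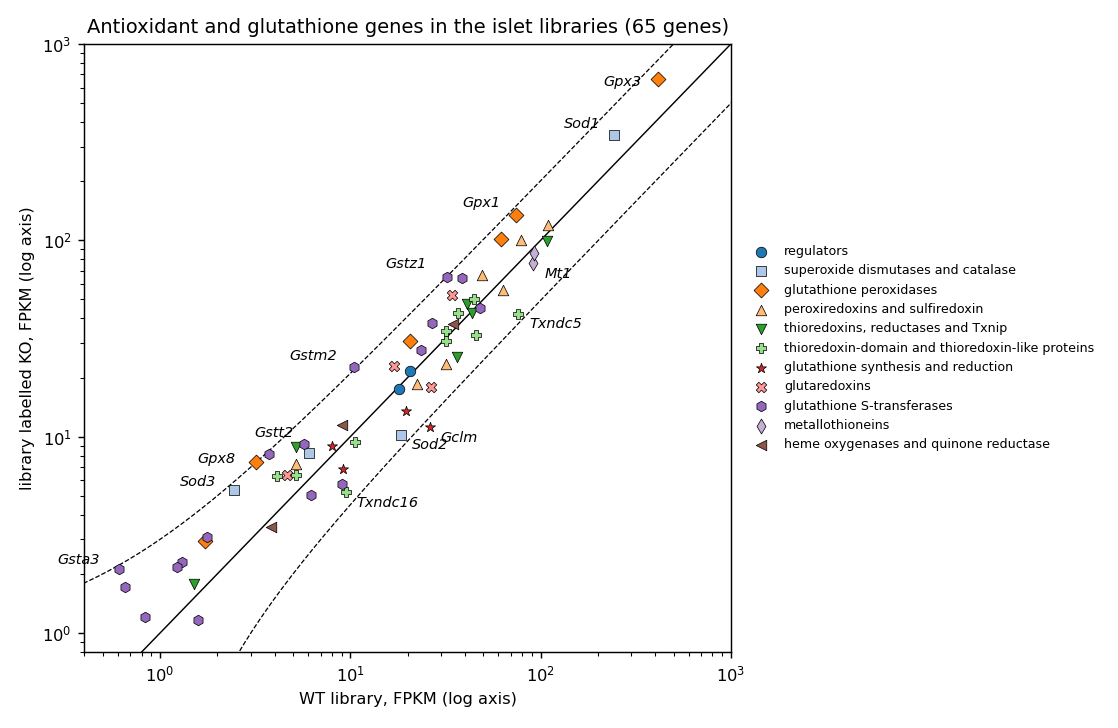
FPKM of the 65 antioxidant and glutathione genes kept, in the WT library (horizontal axis) and the library labelled KO (vertical axis), both on log scales, with colour and marker for role, a solid line at equality and dashed lines at 2-fold on FPKM + 1. Most genes lie between the 2-fold lines, with Gclm below them and Gpx3 and Sod1 at the upper end of both axes.

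At a 2-fold limit 3 of the 65 genes were higher in the library labelled KO (Gpx8, Gstm2 and Gstz1, 4.62%) and 1 was lower (Gclm, 1.54%). Among all 12428 genes at or above 1 FPKM in either library, 6.98% reached 2-fold above WT and 3.88% reached 2-fold below it, so these counts were no larger than the background. Over all genes this was 868 higher and 482 lower, which became 693 and 796 with sums of 1000000, 575 and 724 with sums made equal without the 20 highest genes, and 748 and 562 with a median-ratio scaling. Gstz1 lay just inside the limit and Gstt2 and Gsta3 just outside it, at log2 differences of 1.00, 0.96 and 0.95. With each library scaled to a sum of 1000000 the split of 3 higher and 1 lower became 1 (Gsta3) and 1, and with a median-ratio scaling or sums made equal without the 20 highest genes it became 0 and 1. The median difference of the 65 genes was 0.20, with quartiles of -0.14 and 0.53, against 0.08 for all genes, with quartiles of -0.35 and 0.51. Above 0 lay 63.1% of the 65 genes and 54.4% of all genes. Those 3 scalings moved the median of all genes by -0.12, -0.05 and -0.13. The gap between the 65 genes and all genes was 0.13 as deposited and 0.11, 0.12 and 0.11 under them. Counting intervals of 33 genes (50.8%) lay above a ratio of 1, those of 15 (23.1%) below it, and 17 spanned it. These rest on the smallest reads that fit, so with more reads fewer genes may span it. Among all 12406 kept genes with whole reads, 42.1% lay above and 34.3% below, so most genes had an interval that left out 1.

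The 2 libraries also differed by base composition. Split by transcript GC content into 4 bins of 3089 genes each, all genes had median differences of -0.26, -0.08, 0.18 and 0.44 from the lowest to the highest GC. The antioxidant and glutathione genes followed the same order, with 11, 21, 24 and 9 genes and medians of -0.14, 0.12, 0.36 and 0.43. The 41 genes above 0 had a median GC content of 51.7% and a median transcript length of 1457 bases, and the 24 below 0 had 48.0% and 2742.5 bases. With a smooth trend of the difference on GC content and transcript length removed, 20 of the 65 changed sign, their median was -0.04 against -0.01 for all genes, and none reached 2-fold. The value with this trend removed is given below as the trend-adjusted difference.

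**Figure D2:**
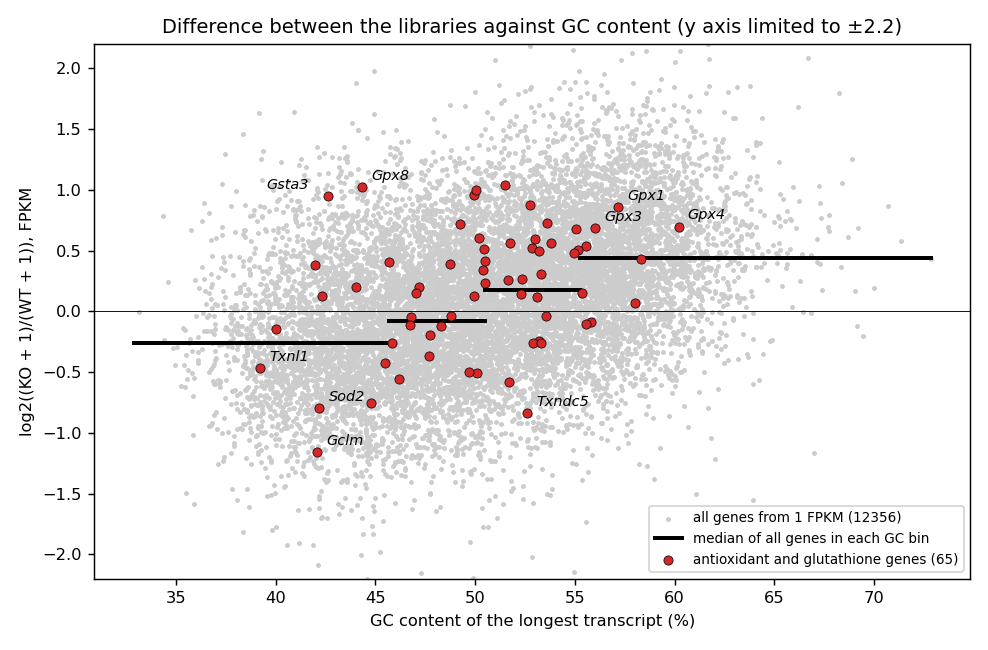
Log2 difference (library labelled KO minus WT) against transcript GC content in percent, for all genes kept (grey) and the antioxidant and glutathione genes (red), with bars at the medians of all genes in the 4 GC bins and the vertical axis limited, so that a few grey points lie outside it. The bin medians of all genes climb from -0.26 to 0.44.

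**Figure D3:**
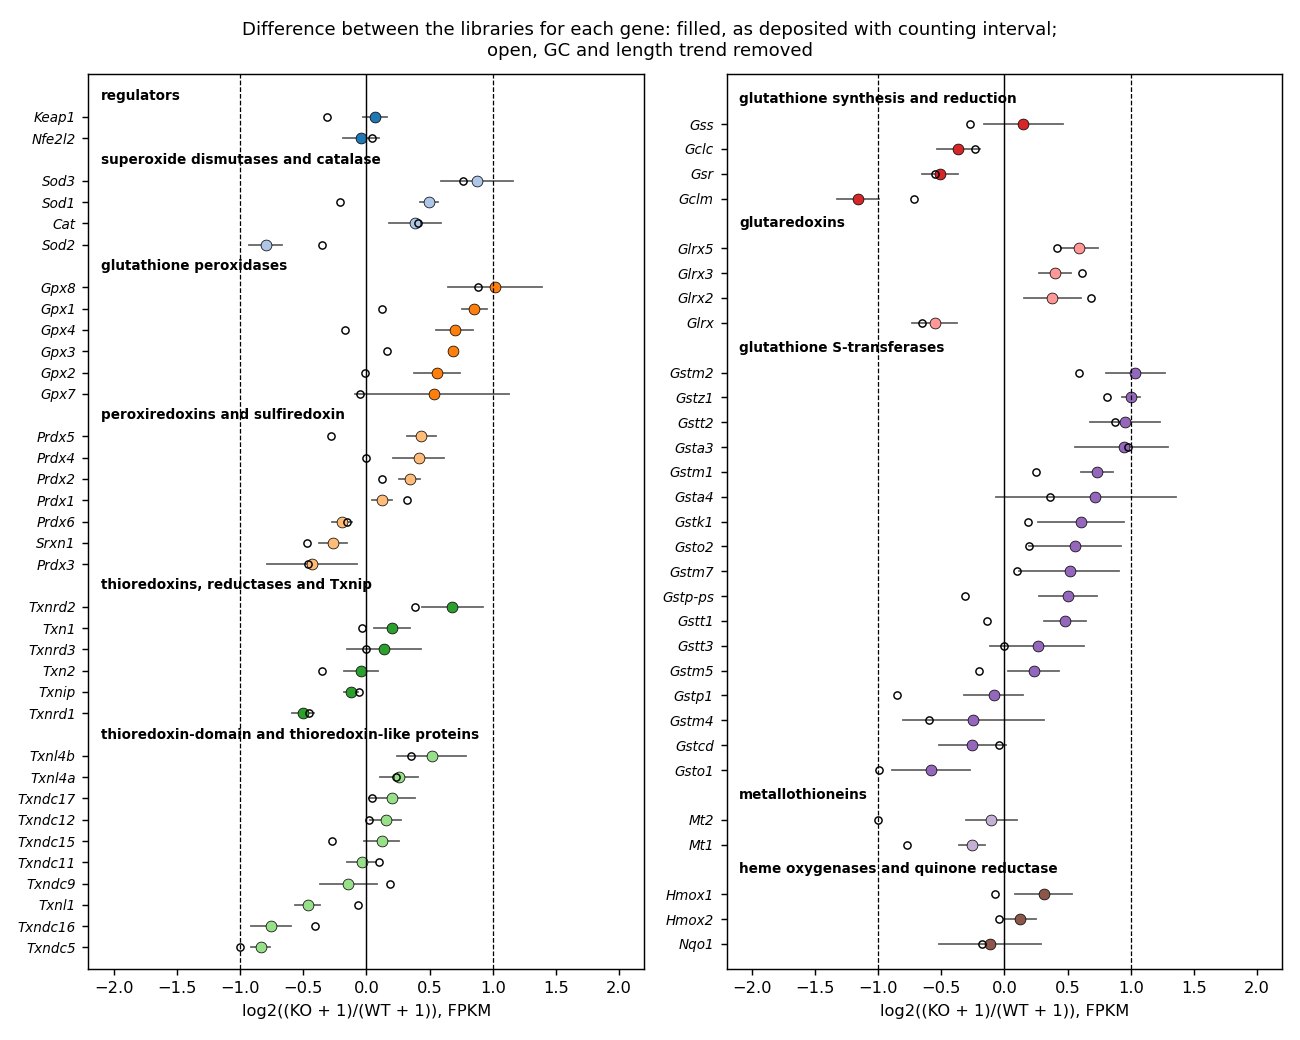
Log2 difference (library labelled KO minus WT, on FPKM + 1) of each of the 65 genes, grouped by role, as filled points with exact 95% counting intervals as bars, open points for the trend-adjusted difference, and lines at 0 and at the 2-fold limits. The glutathione peroxidases all lie above 0, and Gclm lies lowest at -1.16.

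Markers of other islet and pancreas cells differed too. Summed levels of 14 macrophage markers were 468 FPKM in the library labelled KO and 218 in WT, those of 14 endothelial markers 860 and 375, and those of 14 fibroblast and pericyte markers 443 and 232. All 13, 14 and 13 of these above the floor lay above 0, and none of the listed genes was at 0 in either library. Their medians of 1.06, 1.00 and 0.85 were 0.46, 0.95 and 0.73 after trend adjustment. The 8 markers of alpha, delta and PP cells had a median of 0.58, or -0.06 after adjustment. The 6 kept ductal markers also had 0.58, or 0.26 after adjustment. Red blood cell markers summed to 175 FPKM against 103, and all 5 kept lay above 0. Their median was 0.67, or 0.06 after adjustment. The 3 kept lymphocyte markers had 0.35, or 0.54 after adjustment, with 2 above 0. The 1 kept adipocyte marker was at 1.23, or 1.11 after adjustment. The sum of 16 acinar markers was 167 FPKM against 2339, and all 14 kept were at least 2-fold lower. The 10 β-cell markers summed to 57.9% and 58.1% of all FPKM, nearly all of it from the insulin genes, with Ins1 at 237131 against 113793 FPKM and Ins2 at 182558 against 250577. Of the 10, 7 lay below 0, with a median of -0.55 (-0.59 after trend adjustment), and Nkx6-1, Slc2a2 and G6pc2 were at least 2-fold lower. In bulk RNA, fewer cells of a type and less RNA per cell cannot be told apart, and the part these cell types have in the values below was not tested.

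The regulators lay close to equality. Nfe2l2 measured 17.5 FPKM in the library labelled KO against 18.1 in WT, a ratio of 0.97 (0.87 to 1.08). Keap1, which targets NRF2 for degradation, gave 21.6 and 20.5 FPKM, with a ratio of 1.05 (0.98 to 1.13). Both intervals span 1, and the sign of each small difference depended on the scaling or the trend.

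All 6 kept glutathione peroxidases were above 0, with a median of 0.69, which was between 0.54 and 0.64 under the 3 scalings and 0.06 after trend adjustment. Gpx3, the secreted plasma form, measured 664 FPKM in the library labelled KO against 412 in WT, a ratio of 1.61 (1.57 to 1.65). It was the most abundant of all 72 genes in both libraries and held 70.5% and 71.8% of the glutathione peroxidase FPKM, so its weight within the family was similar. Gpx1, the cytosolic and mitochondrial form, was at 135 FPKM against 74.3, a ratio of 1.82 (1.69 to 1.95). Gpx4, which reduces lipid hydroperoxides in membranes and restrains ferroptosis, was at 101 FPKM against 61.9, a ratio of 1.63 (1.48 to 1.81). Reads of Gpx4 are uncertain, because 66.8% of the 31-base words of its transcripts also occur in another gene, and its trend-adjusted difference was -0.17. Gpx2, a form of gut and other epithelia, was at 30.7 FPKM against 20.5. Gpx8, a membrane protein of the endoplasmic reticulum that lacks selenocysteine, was at 7.47 FPKM against 3.18, a ratio of 2.35 (1.71 to 3.26), and stayed at 0.88 after trend adjustment. Its relative Gpx7 was at 2.95 FPKM against 1.73, and the Gpx7 interval of 0.92 to 3.23 spans 1 at the smallest reads that fit. The gene length behind those reads was 0.47 of the longest Gpx7 transcript, so the reads may be more and the interval narrower. Among the 4 selenocysteine peroxidases the trend-adjusted differences ran from -0.17 (Gpx4) to 0.16 (Gpx3), against 0.88 for Gpx8. Gpx7, which also lacks selenocysteine, was at -0.05 after trend adjustment, within the range of those 4.

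The superoxide dismutases differed in sign. Sod1, the copper and zinc enzyme of the cytosol, measured 344 FPKM in the library labelled KO against 243 in WT, a ratio of 1.41 (1.34 to 1.49), with a trend-adjusted difference of -0.21. Sod2, the manganese enzyme of mitochondria, was at 10.3 FPKM against 18.5, a ratio of 0.55 (0.50 to 0.61), and stayed below 0 at -0.35 after adjustment. Sod1 was 33.5 times the level of Sod2 in the library labelled KO and 13.1 times in WT. Sod3, the secreted form, was at 5.35 FPKM against 2.46, a ratio of 2.18 (1.68 to 2.83), but under the limit on the log2(FPKM + 1) scale at 0.88. Catalase was at 8.28 FPKM against 6.10, a ratio of 1.36 (1.15 to 1.60). Its RNA was low in both libraries beside Gpx1 and Prdx1.

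Peroxiredoxins, which reduce peroxide through a reactive cysteine, differed less. Prdx1, the most abundant, measured 119 FPKM in the library labelled KO against 109 in WT, a ratio of 1.09 (1.03 to 1.15), whose sign was lost under some scalings. Prdx2 was at 101 FPKM against 79.3, a ratio of 1.27 (1.20 to 1.35). Both are cytosolic enzymes and both lay within 0.35 of equality. Prdx5 was at 66.8 and 49.2 FPKM, Prdx6, which uses glutathione rather than thioredoxin, at 55.6 and 63.7, and Prdx4, the form of the endoplasmic reticulum, at 7.26 and 5.19. Prdx3, the mitochondrial form, was at 23.3 against 31.7, a log2 difference of -0.43. Srxn1, which restores overoxidised peroxiredoxins, was at 18.6 against 22.5. The group median of 0.12 did not keep its sign: it was -0.02 with sums of 1000000 or with sums made equal without the 20 highest genes, and -0.15 after trend adjustment.

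In the thioredoxin system, thioredoxin itself was similar in both libraries, at 47.3 and 41.0 FPKM for the cytosolic Txn1 and 42.5 and 43.8 for the mitochondrial Txn2. Their reductases differed in sign. Txnrd1, the cytosolic reductase, measured 25.5 FPKM in the library labelled KO against 36.5 in WT, a ratio of 0.70 (0.66 to 0.74). Txnrd2, the mitochondrial reductase, was at 8.88 FPKM against 5.17, a ratio of 1.72 (1.42 to 2.09). Txnrd3, of testis, was at 1.77 against 1.51. Txnip, which binds thioredoxin and is induced by glucose in β-cells, was at 99.0 FPKM against 108, a ratio of 0.92 (0.88 to 0.96). The selenocysteine codon thus did not mark one direction: 6 of the 7 genes printed above lay above 0 and Txnrd1 below it, with a median of 0.68 before and -0.01 after trend adjustment.

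The 10 kept genes of thioredoxin-domain and thioredoxin-like proteins split evenly, 5 above and 5 below 0, with a median of 0.04. Txndc5, a protein disulfide isomerase of the endoplasmic reticulum, measured 42.2 FPKM in the library labelled KO against 76.1 in WT, a ratio of 0.55 (0.53 to 0.58). Txndc16, another protein of that compartment, was at 5.22 against 9.50, a ratio of 0.55 (0.48 to 0.62). Txndc5 kept a trend-adjusted difference of -0.998, close to those of Mt2 (-0.999) and Gsto1 (-0.996), the lowest 3 of the 65 genes. The other 8 genes lay between -0.47 (Txnl1) and 0.52 (Txnl4b).

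Genes that make and regenerate glutathione lay mostly below 0. Gclm, the modifier subunit of glutamate-cysteine ligase, which catalyses the rate-limiting step of glutathione synthesis, measured 11.2 FPKM in the library labelled KO against 26.2 in WT, a ratio of 0.43 (0.38 to 0.48). Its difference of -1.16 ranged from -1.32 to -0.72 over the scalings, pseudocounts and the trend adjustment, and was under the 2-fold limit with a pseudocount of 5 (-0.94) and after trend adjustment (-0.72). Gclc, the catalytic subunit, was at 6.86 FPKM against 9.14, a ratio of 0.75 (0.66 to 0.86). Gclm was thus 1.63 times Gclc in the library labelled KO and 2.86 times in WT, so the subunit ratio was lower in the former. Gsr, glutathione reductase, was at 13.5 FPKM against 19.7, a ratio of 0.69 (0.62 to 0.76). Gss, which adds glycine in the last step, was at 9.01 against 8.02, and its interval of 0.88 to 1.43 spans 1. The median of these 4 genes was -0.44, and -0.41 after trend adjustment.

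Of the 4 glutaredoxins, small thiol-disulfide enzymes that use glutathione, 3 were above 0. Glrx5, which takes part in iron-sulfur cluster assembly in mitochondria, measured 52.4 FPKM in the library labelled KO against 34.4 in WT. Glrx3 was at 22.8 against 17.0 and Glrx2 at 6.36 against 4.66, while the cytosolic Glrx was at 17.9 against 26.7, a log2 difference of -0.55.

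Glutathione S-transferases, which conjugate glutathione to electrophiles, had 13 of 17 kept genes above 0 and a median of 0.52, or 0.10 after trend adjustment. This was 76.5% above 0, against 54.4% of all genes. Gstz1, which also isomerises maleylacetoacetate in tyrosine breakdown, measured 65.1 FPKM in the library labelled KO against 32.0 in WT, a ratio of 2.03 (1.93 to 2.14), and remained at 0.81 after adjustment. Gstm2, at 22.6 FPKM against 10.5, had a ratio of 2.15 (1.80 to 2.57). Its log2 difference of 1.04 became 0.59 after adjustment. The neighbour of Gstm2, Gstm1, within the mu-class cluster on chromosome 3, was at 64.5 against 38.5, a ratio of 1.68 (1.54 to 1.83). The log2 difference of Gstm1 was 0.73, or 0.25 after adjustment. Other kept genes of the mu class ran from -0.25 (Gstm4) to 0.52 (Gstm7), so the class did not share 1 size of difference. Gstt2 was at 8.20 FPKM against 3.75, a ratio of 2.19 (1.74 to 2.76). Gsta3 was at 2.11 against 0.610, a ratio of 3.46 (2.002 to 6.21), and Gsta4 at 1.72 against 0.656, with an interval of 0.91 to 8.53. Both alpha-class genes were near the floor. Gsta3 rests on at least 50 and 19 reads and Gsta4 on at least 12 and 6. The gene length behind the Gsta4 reads was 0.49 of its longest transcript, so they may be more and its interval narrower. Gsto1, of the omega class, was lowest of the family at 5.72 against 9.06, a log2 difference of -0.58. Gstp1 was at 45.3 and 48.1 FPKM, with 67.5% of its words shared with another gene, so its reads are uncertain.

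The metallothioneins were below WT by less than 0.3 on the log2 scale. Mt1 measured 76.6 FPKM in the library labelled KO against 91.7 in WT, a ratio of 0.83 (0.78 to 0.90), and Mt2 was at 85.9 against 92.3, with an interval of 0.81 to 1.07. Reads of Mt2 are uncertain, with 56.1% of its words shared with another gene. Their transcripts, of 1085 and 511 bases with 52.9% and 55.6% GC, are shorter and richer in GC than the medians of all genes (3104 bases and 50.5%), and their trend-adjusted differences were -0.770 and -0.999. Among stress-induced enzymes, Hmox1, which degrades heme, was at 11.5 FPKM against 9.07, a ratio of 1.27 (1.06 to 1.51), and turned to -0.08 after adjustment. Nqo1, a quinone reductase, was at 3.46 against 3.83, a ratio of 0.90 (0.63 to 1.29). Hmox2 was at 37.7 against 34.5, with 49.4% of its words shared with another gene. These 3 genes lay within 0.31 of equality.

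By compartment, the 7 genes assigned to mitochondria had a median of 0.38 with 4 above 0, or 0.18 after trend adjustment. Gpx1, described above as cytosolic and mitochondrial, was not assigned to a compartment and lay at 0.85 (0.12 after trend adjustment). Prdx5 (0.43, or -0.28 after adjustment), Gpx4 (0.70, or -0.17) and Gstz1 (1.00, or 0.81) were also not assigned. These medians hold for the assignments used only. The 7 of the endoplasmic reticulum had a median of 0.15 with 4 above 0, which was lost after trend adjustment (-0.0009, with 3 above 0). Within mitochondria Sod2, Prdx3 and Txn2 were below 0, and Txnrd2, Glrx5, Glrx2 and Gstk1 above it. Within the endoplasmic reticulum Gpx8, Gpx7, Prdx4 and Txndc12 were above 0, and Txndc5, Txndc16 and Txndc11 below it.

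Promoter windows of RefSeq (GRCm38.p6), from 250 bases before to 50 after each annotated start, were available for 61 of the 72 genes. The core of the antioxidant response element, TGACNNNGC on either strand, occurred in the windows of 13 of them (21.3%), against 14.0% of all genes and 12.4% of all 32851 windows. The 12 of these above the floor had a median difference of -0.04, with 5 above and 7 below 0, and the 43 without the core had 0.27. Genes with the core included Gclm, Txnrd1, Srxn1, Txndc5, Prdx1, Sod1, Gsta3 and Mt2, so it was present on both sides of 0. The core of the metal response element, TGCACNC or TGCGCNC, occurred in 21 (34.4%), against 28.2% of all genes and 25.7% of windows, with medians of 0.22 with it and 0.15 without. The 2 promoters printed belong to the gene with the lowest difference and to a metallothionein, and the windows of both genes hold both cores. In Gclm the capitals mark the antioxidant core, read on the minus strand, and in Mt2 they mark the 3 metal cores before the start, of 4 in its window. The Gclm window also holds 3 metal cores, which are not marked. Both are on the plus strand and end just before the first annotated base of the gene.
Gclm, chr3:122245307-122245486: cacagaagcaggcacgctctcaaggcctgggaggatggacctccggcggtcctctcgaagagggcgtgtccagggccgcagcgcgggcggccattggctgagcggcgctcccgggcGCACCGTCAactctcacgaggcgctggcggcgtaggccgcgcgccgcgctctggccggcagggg
Mt2, chr8:94172368-94172617: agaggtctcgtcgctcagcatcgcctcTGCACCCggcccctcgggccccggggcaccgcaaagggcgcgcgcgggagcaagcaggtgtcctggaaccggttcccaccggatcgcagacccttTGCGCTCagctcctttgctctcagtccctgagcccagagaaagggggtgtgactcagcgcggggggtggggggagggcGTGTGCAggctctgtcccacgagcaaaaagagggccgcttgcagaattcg
These matches are letters in a window and are not measured binding sites.

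Genes of the same pathways that are outside the 72 were read from 8 lists. Of the 143 kept, 8 reached 2-fold above WT (5.59%) and 10 reached 2-fold below it (6.99%), with a median of 0.00. Among all genes 6.98% were higher and 3.88% lower, with a median of 0.08. With sums of 1000000, or sums made equal without the 20 highest genes, the split was 6 and 15. Under the first of these scalings 5.36% of all genes were higher and 6.16% lower, and under the second 4.64% and 5.84%. No NRF2-linked gene of 32 reached 2-fold, and their median was 0.19, or -0.19 after trend adjustment. The widest were Mafg, an NRF2 partner, at 0.81, Cul3, which joins KEAP1 in degrading NRF2, at -0.81, and Nfe2l1 at -0.61. Of 21 other glutathione genes 3 were higher: Haghl measured 33.5 FPKM in the library labelled KO against 12.3 in WT, Ggt7 at 30.4 against 13.01, and Cbs, which starts the route from homocysteine to cysteine, at 27.4 against 12.9. Anpep and Gdap1, both at -0.92, were the widest below 0.

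Selenoproteins outside the set lay more often below 0 than above it: 9 of the 14 kept were below, with a median of -0.37 (-0.44 after trend adjustment). Above 0 lay 35.7% of the 14, against 54.4% of all genes. Selenot, of the endoplasmic reticulum, measured 50.7 FPKM in the library labelled KO against 121 in WT, and Selenop, the secreted selenium carrier, at 149 against 321. The 5 above 0 were Selenom, Selenow, Selenon, Msrb1 and Selenoo, of which Selenom, at 260.0 against 114, reached 2-fold, with a trend-adjusted difference of 0.16. Selenow was at 288 against 149. Of 9 genes of the selenocysteine machinery 1, Trnau1ap, was higher, at 22.1 against 10.1.

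Oxidative folding genes of the endoplasmic reticulum lay mostly below 0: 16 of 21 lay below 0, with a median of -0.46 (-0.49 after trend adjustment). Above 0 lay 23.8% of them, against 54.4% of all genes. At the 2-fold limit 4 were lower (19.0%), against 3.88% of all genes. This count depended on the setting. It was 5 with sums of 1000000, median-ratio scaling or sums equal without the 20 highest genes (6.16%, 4.53% and 5.84% of all genes). With a pseudocount of 5 it was 0, and with the trend removed it was 0, against 1.46% and 2.93% of all genes. Pdia4, a disulfide isomerase, measured 52.8 FPKM in the library labelled KO against 108 in WT, and Ero1a, the oxidase that recharges disulfide isomerase and forms hydrogen peroxide, was at 5.92 against 14.4. Dnajc10 was at 16.2 against 36.6 and Tmx4 at 15.7 against 32.9. Txndc5 and Txndc16, described above, lay on the same side. The summed acinar markers, of a cell type rich in endoplasmic reticulum, were also lower (167 against 2339 FPKM), and their part in these values was not tested.

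Among 15 other thiol repair and oxidative damage genes, Sesn3 was lower at 5.16 FPKM against 16.9. Mutyh, a DNA glycosylase, was higher at 2.58 against 0.413, on few reads at the smallest numbers that fit. Of 12 genes for enzymes that form superoxide or peroxide, Pcyox1 was lower at 16.7 against 35.8. Ncf1 and Cyba, subunits of the phagocyte oxidase, both at 0.91, and Xdh at 0.96 were the widest above 0. After trend adjustment Ncf1 was at 0.71, Cyba at -0.02 and Xdh at 0.95. The summed macrophage markers, at 468 against 218 FPKM, were also higher as deposited, and their part in these values was not tested. Of 19 zinc genes 14 were below 0 and 26.3% above it, against 54.4% of all genes above 0. Slc30a4 was at 3.90 against 9.40 and Slc39a9 at 12.5 against 26.4, and Mt3 (11.1 against 4.28) and Slc39a2 (1.71 against 0.274) were higher.

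**Figure D4:**
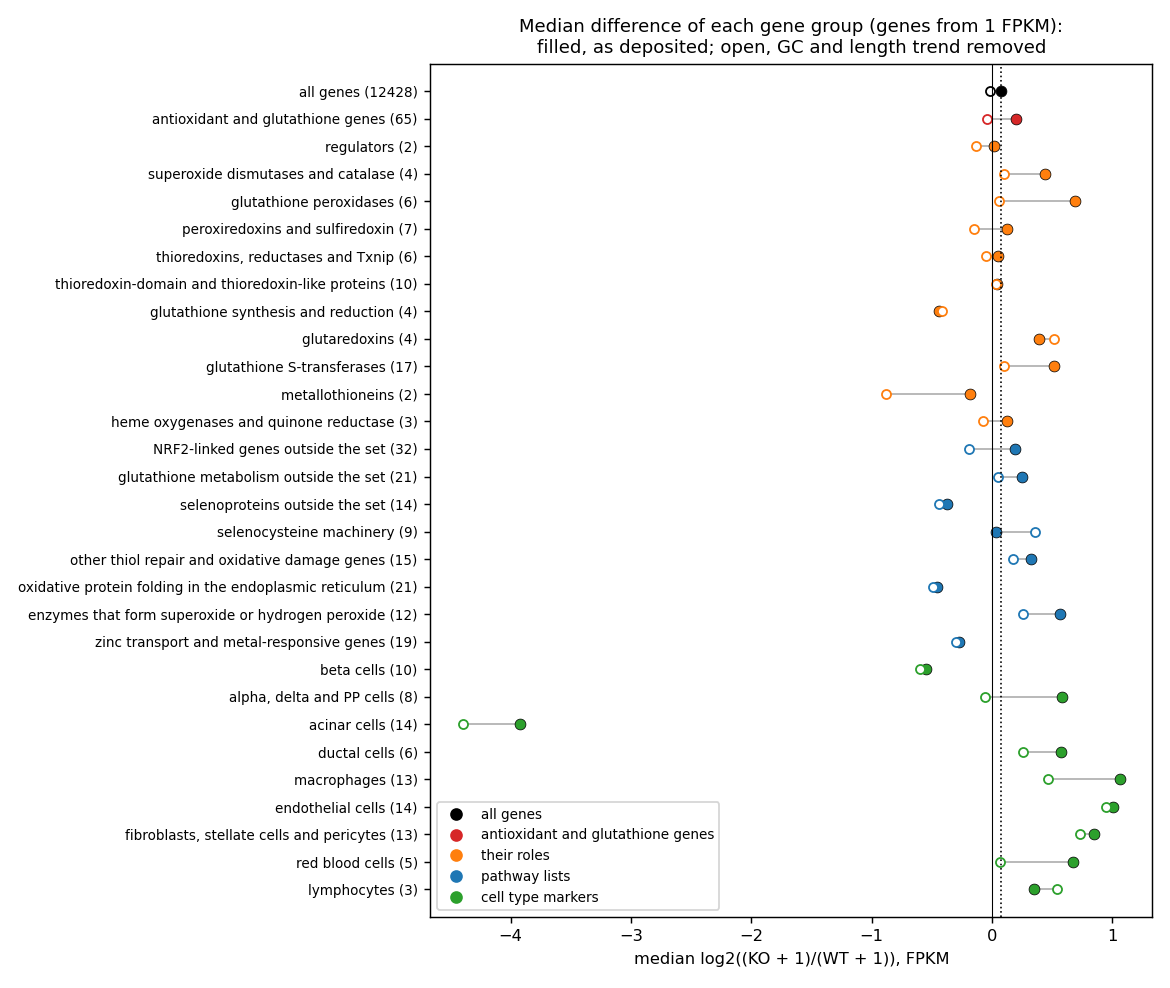
Median log2 difference (library labelled KO minus WT) of the roles of the antioxidant and glutathione genes (orange), of the pathway lists (blue) and of cell type markers (green), before (filled) and after (open) removing the trend on GC content and transcript length, with the number of genes in parentheses and a dotted line at the median of all genes. Glutathione peroxidases have a median of 0.69 before and 0.06 after, while glutathione synthesis and reduction stays at -0.44 and -0.41.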

How the data were processed

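Per the labels' protocols, islets were isolated with collagenase, picked, cultured, and sequenced from libraries made with a SMARTER kit. The authors deposited FPKM values for 2 libraries, 1 per genotype. The submitters' processing notes name GRCm38 and mm10; for the aligner, counter, annotation and strand setting the sources used here give nothing. All 2 value columns were used.

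Values were used as deposited, without further scaling. A gene was kept from 1 FPKM upward in either library, differences were taken on log2(FPKM + 1), and at least 2-fold was the limit. Whole reads were searched over gene lengths of 60 to 30000 bases: the values of 17178 of 17245 genes (99.6%) matched whole numbers, with a tolerance of 1e-05 reads plus 1e-09 of the number, as did all 72 of the set. Their smallest reads gave exact Clopper-Pearson intervals of the ratio. Over all genes these made up 91.3% and 90.1% of the inferred totals, so some genes have more reads than were used. GC content and length came from GENCODE M21 transcripts (12356 of 12428 genes), and the trend from a LOWESS fit over a fraction of 0.3, per statsmodels 0.14.6. Shared words were 31 bases. Positions and promoters came from RefSeq GRCm38.p6, with positions matched for all 72 genes and promoter windows for 61. Python 3.11.15, pandas 2.3.3 and scipy 1.17.1 were used, and the scripts were tested on simulated data.

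The rule for the 72 genes uses symbols only, but that rule, the lists and the settings were chosen with earlier results of these data known. Named with ratio and interval were the 16 genes of widest difference, the 6 of highest level and 14 chosen by role. Pathway genes were named where they reached 2-fold, with up to 3 others of widest difference per list. A few further genes were given values to fill out a role.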

Additional observations from a re-analysis of the deposited data

How the results depend on the processing

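The count of antioxidant and glutathione genes at least 2-fold higher (3) became 7 with a pseudocount of 0.1, 0 with one of 5, 1 with sums of 1000000, 0 with median-ratio scaling, 0 with sums equal without the 20 highest genes, 0 with the trend on GC content and length removed, and 14 at a limit of 1.5-fold. The count lower (1) became 0 with a pseudocount of 5, 0 with the trend removed and 4 at 1.5-fold. Their median of 0.20 became -0.042 with the trend removed. Of all genes, 12.5% were higher and 5.76% lower with a pseudocount of 0.1, and 2.45% and 1.46% with one of 5. The shares of all genes were 3.24% and 2.93% with the trend removed, and 21.4% and 13.5% at 1.5-fold. Of the 65 genes, 10.8% were higher with a pseudocount of 0.1, and 21.5% were higher and 6.15% lower at 1.5-fold. The pathway genes outside the set that were higher (8) became 17 with a pseudocount of 0.1, 2 with one of 5, 3 with the trend removed and 25 at 1.5-fold, and those lower (10) became 3, 3 and 32 under the last 3 of these settings, 14 with a pseudocount of 0.1, and 15 both with sums of 1000000 and with sums equal without the 20 highest genes. Over all genes, 868 were higher and 482 lower, against 693 and 796 with sums of 1000000, 575 and 724 with sums equal without the 20 highest genes, and 400 and 362 with the trend removed. Of 30 named genes 23 kept their sign over 6 alternatives, and Gpx4, Sod1, Prdx1, Nfe2l2, Keap1, Gss and Hmox1 did not. The alternative that leaves out genes sharing words with another gene was chosen after seeing the data, and the planned one on protein identity was not run. Leaving out a replicate was not possible, and with 1 library per genotype neither a test nor the spread between animals can be had. No paired analysis was possible because each genotype has 1 library. The cause of these shifts was not tested.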
